A study of Drosophila melanogaster with 5 samples.

Results

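Antimicrobial peptide genes encode small secreted peptides that kill bacteria and fungi, and 10 of them were chosen by name: Mtk, Drs, Drsl5, Def, AttA, AttB, AttC, DptA, DptB and CecA1. Of the 10, 6 had a probe carrying their symbol and a value (Mtk, Drs, Drsl5, Def, AttB and DptB), with 7 probes in all. AttA, AttC, DptA and CecA1 were not analysed here. The 6 genes stood among 10125 genes with a value on spotted two-colour arrays of whole adult Drosophila melanogaster females.

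The females lacked the insulin-producing cells (IPC), neurosecretory cells of the brain that release insulin-like peptides, or were controls. In the IPC-deficient flies the InsP3-Gal4 driver expressed RPR/HID, the cell death genes reaper and hid, from a UAS transgene, and the control flies carried the same driver with UAS-LacZ. The flies of both groups were 14 days old, had been parted from males after 11 days, and had eaten yeast paste as their sole food for 48 h. RNA of both groups was co-hybridised on 5 arrays from 2 biological repeats, and the RNA of the IPC-deficient flies carried Cy5 on 2 of the arrays and Cy3 on 3. Whole animals were extracted, so more cells of a type and more RNA per cell cannot be told apart.

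In flies, most of these peptides are made by the fat body and blood cells and released into the hemolymph after infection, and some are made locally by the gut, trachea and reproductive tract. The Toll pathway, acting through the NF-kappaB factors Dif and dorsal, and the Imd pathway, acting through Relish, switch on their genes. The transcription factor FOXO, which insulin signalling holds in the cytoplasm, is known to be able to switch on several of them without infection.

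The deposited table gave each probe 1 signed fold change, the same number on each array where the probe was filled, so neither a spread between flies nor a test could be had. Values are given here as log2 of the fold with its sign kept. A positive value is read as higher in IPC-deficient flies than in control flies, a direction that is likely but not stated: the series names the deficient flies first, and tobi, an alpha-glucosidase gene named as a target of brain insulin, had the value -4.10. With the sign turned, each direction below would be the opposite. Ilp2, a product of the ablated cells, stood at 0.01 from 4 of 10 possible spots and so gave no check of the ablation. The error beside a probe is the SD between different probes of 1 gene, 0.18 on the log2 scale over 647 genes with 1437 probes on all 5 arrays. Variation between animals is not part of it. A probe could be filled in at most 10 spots, as 2 copies on each of 5 arrays, and the number filled stands in for how well it was measured.

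The measured antimicrobial peptide genes stood on the positive side, but only Mtk did so past 1.5-fold on a well-filled probe. All 6 genes were above 0, against 48.1% of all genes, and their median was 0.42, against -0.01 over all genes. At 1.5-fold, which is 0.58 on the log2 scale, Mtk and AttB, 2 of the 6, were positive and 0 were negative. Over all genes, 2.25% were positive and 3.11% negative at that threshold. Both genes also passed 2-fold, which 0.711% of all genes did in the positive direction. The call of AttB rested on 1 spot, and without it 1 of 6 genes was past 1.5-fold. The other 4 genes lay between 0.15 and 0.45. Members were chosen with earlier results of these data known, so these counts are descriptions.

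**Figure D1:**
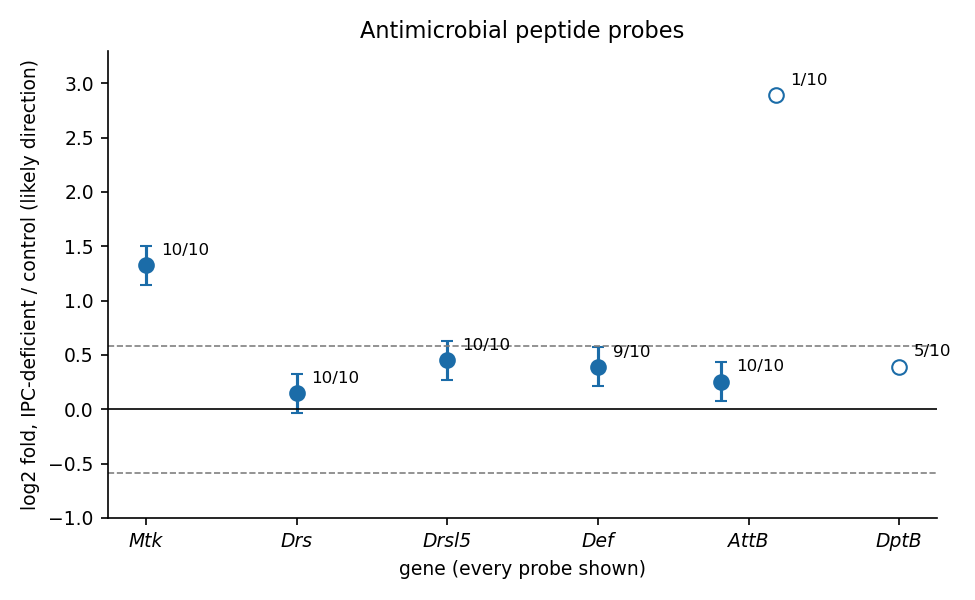
Log2 fold of IPC-deficient over control flies for each probe of the 6 measured antimicrobial peptide genes, with the number of filled spots of 10 beside each point. Filled points had a value on all 5 arrays and carry the SD between probes of a gene (0.18), open points did not, and dashed lines mark 1.5-fold. Mtk stands at 1.33 on 10 spots, and the AttB probe at 2.89 has 1 spot, far above the 10-spot probe of the same gene.

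Among the peptides active against fungi, Mtk, which encodes metchnikowin, stood highest. Its 1 probe had a value of 1.33, a 2.51-fold difference, and was filled in both copies on each of the 5 arrays. This lay 7.38 times the SD between probes above 0. Among the 6531 genes with every probe on all 5 arrays, of which 1.96% were positive and 0.704% negative at 1.5-fold, Mtk ranked 9th, so that 0.122% stood higher. Among the 4559 named probes with all 10 spots filled, it ranked 10th from the top. Metchnikowin is known to answer to both Toll and Imd signalling.

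Drs encodes drosomycin, the antifungal peptide most often used to read out Toll signalling. It stood at 0.15, a 1.11-fold difference, on a probe with 10 of 10 spots. The value was smaller than the SD between probes, and 19.3% of all genes stood higher. Mtk thus stood well above Drs, and both probes were fully filled.

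Drsl5 encodes a drosomycin-like peptide. It stood at 0.45, a 1.37-fold difference, again from 10 of 10 spots, and 3.64% of all genes were higher. Between Mtk and Drsl5, the next of the 4 members with every probe on all arrays, the gap was 0.87, or 4.87 times the SD between probes. Drsl5 and Def stood 0.06 apart, and Def and Drs 0.24 apart, which is 0.355 and 1.34 times that SD. Drsl5 and Def therefore did not differ by more than the probe error.

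**Figure D2:**
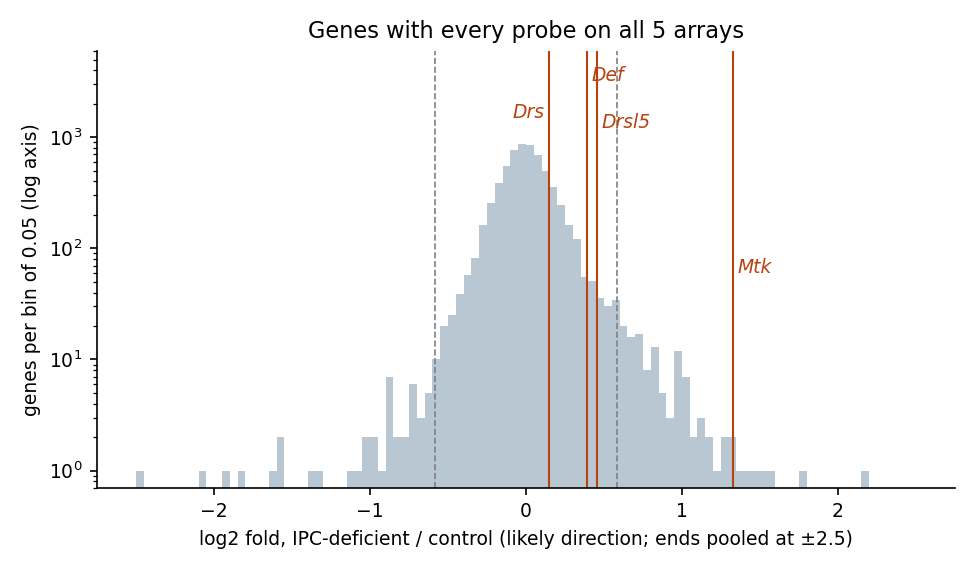
Number of genes per bin of 0.05 log2 units (log axis) for the 6531 genes with every probe on all 5 arrays, with values past 2.5 on either side pooled in the end bins. Vertical lines place Drs at 0.15, Def at 0.39, Drsl5 at 0.45 and Mtk at 1.33, and dashed lines mark 1.5-fold. Drs lies within the bulk of the genes, and Mtk lies in the sparse positive tail.

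Def, which encodes defensin, a peptide that acts mainly on Gram-positive bacteria, stood at 0.39, a 1.31-fold difference. Its probe was filled in 9 of 10 spots, the missing one on array 2. Of all genes, 4.67% stood higher, and the value was 2.16 times the SD between probes.

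The diptericins and the attacins, which act mainly on Gram-negative bacteria, were each represented by 1 measured member. Another attacin gene outside the members, AttD, stood at 0.12 from 4 of 10 spots on 2 arrays. DptB, a diptericin gene and a usual target of Imd signalling, stood at 0.39, a 1.31-fold difference, from 5 of 10 spots. Both copies were filled on array 1, 1 copy on arrays 2, 3 and 4, and none on array 5. It was the least filled of the single-probe members. Of all genes, 4.64% stood higher.

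AttB, an attacin gene, had 2 probes that disagreed. The probe filled in 10 of 10 spots stood at 0.25, a 1.19-fold difference, and the other, filled in 1 spot on array 2, stood at 2.89, a 7.42-fold difference. Their median, 1.57, is the gene value under the rule used for all genes and described neither probe. The gap of 2.64 can be set against an SD of 0.56 between probes of a gene over all probes with a value, sparsely filled ones included. Of the 34 genes that likewise had a probe with 1 filled spot and a probe with 10, the median gap was 1.51, 23 had a gap over 1, and 12, AttB among them, had a gap of at least 2.64. By its fully filled probe alone, AttB ranked 427th of the 4559 named probes with 10 spots. AttB and its neighbour AttA are close copies, so a spotted probe for one can bind RNA of the other, and the 0.25 may belong to either gene.

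The share of probes past 1.5-fold was largest at 1 filled spot on both sides, but fell steadily with filling only on the negative side. From 4 filled spots up, the positive share lay between 1.24% and 2.99% without a steady fall. Of 146 named probes with 1 filled spot, 13.0% were positive and 33.6% negative at 1.5-fold. Of the 4559 with 10 filled spots, 2.15% were positive and 0.395% negative. Mtk, Drs, Drsl5 and 1 AttB probe belong to the second class. Of 736 probes with 5 filled spots, the class of DptB, 2.99% were positive and 5.57% negative at 1.5-fold.

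**Figure D3:**
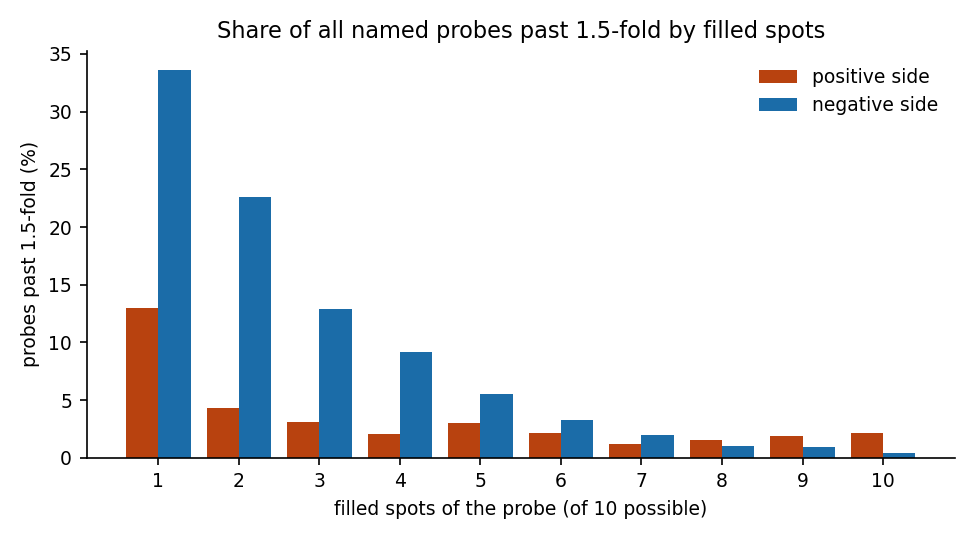
Percent of named probes past 1.5-fold on the positive and the negative side, by number of filled spots out of 10. Both shares are highest for probes with 1 filled spot (13.0% and 33.6%), the class of the AttB probe at 2.89, and at 10 filled spots they are 2.15% and 0.395%.

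Medians of the spots around the member probes on the array lay near 0, although single neighbours stood higher than a member. Within 2 rows and 2 columns of the Mtk probe, 18 of 24 other probes had a value. Their median was -0.01, the lowest -4.46 and the highest 0.48. Of these 18 single probes, none was positive and 3 were negative at 1.5-fold. Over all genes, counted by gene medians and not by single probes, the shares were 2.25% and 3.11%. The medians around the other 6 member probes lay between -0.01 and 0.07. The highest neighbour of Drs stood at 0.58, that of Def at 0.49 and that of the 10-spot AttB probe at 0.67, each above the member itself. Around each of the AttB probes, 1 neighbour was past 1.5-fold on the positive side, and around Drs, Drsl5, Def and DptB none was. On the negative side, 1 neighbour of Drs was past 1.5-fold, and none was around Drsl5, Def, DptB and the AttB probes.

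Neighbours in the genome were read from the order of a RefSeq gene table. Mtk has no other antimicrobial peptide gene among the 5 genes on either side, and the nearest measured ones, Stacl and CG8180, stood at 0.27 from 6 spots and at -0.23 from 5. Drsl5 lies in a row of drosomycin-like genes, of which Drsl3 stood at 0.25 from 4 spots. On its other side lies PIG-C, whose probe with 10 spots stood at -0.13 and whose probe with 2 spots stood at -3.24. Adjacent to Drs, kst stood at 0.68, past 1.5-fold, between a probe with 9 spots at 0.20 and one with 4 spots at 1.17, and Ythdc1 on the other side stood at -0.24. Drsl6, next beyond kst, stood at 0.39 from 7 spots, and the 4 measured genes of the drosomycin family (Drs, Drsl3, Drsl5 and Drsl6) thus stood between 0.15 and 0.45. Related members can cross-hybridise. Next to AttB, the proteasome gene Rpn6 stood at -0.15, and the gene nearest to DptB with a value, sano, stood at -0.96 from 5 spots. Around Def, magu and PIG-N stood at -0.17 and -0.10.

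Other antimicrobial peptides stood on both sides. Of the 6 measured of 17 listed, 4 were above 0, at 1.5-fold none was positive and 1 was negative, and the median was 0.08. Over the 4 with every probe on all 5 arrays, 2 were above 0 and the median turned to -0.15. Furthest from 0 were BaraB, a gene of the Baramicin family, at -0.86 from 7 spots, Drsl6 at 0.39, and Anp, which encodes andropin, a peptide of the male reproductive tract, at -0.33 from 9 spots. Bomanins, short peptides induced by Toll signalling, and the Daisho peptides had 4 measured genes of 14, 3 of them above 0 with a median of 0.18. BomS4 stood at 0.72, a 1.65-fold difference from 10 spots, and was the 1 gene of that list past 1.5-fold. BomT3 stood at -0.27 and BomBc2 at 0.23, where its 2 probes gave 0.21 and 0.26.

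Lysozymes, which digest bacterial cell walls and in flies serve digestion as well as defence, had 3 of 4 measured genes above 0 and a median of 0.20. LysX had the value 0.39, LysP 0.24 and LysE 0.17. None reached 1.5-fold. The Turandot stress peptides were measured for 2 of 8 genes, neither past 1.5-fold.

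The receptors and pathways upstream of the peptides stood near 0. The list of peptidoglycan recognition proteins and Gram-negative binding proteins had 9 measured genes, 3 of them above 0, and its median was -0.09. PGRP-SC2, an amidase that degrades peptidoglycan and so dampens Imd signalling, stood at -0.40 from 10 spots, and the intracellular receptor PGRP-LE at -0.16. PGRP-LB, another such amidase, stood at -0.09. Only PGRP-SC1b, named after its values were seen, was past 1.5-fold, at -0.89, the median of a probe with 1 spot at -1.82 and a probe with 10 spots at 0.03.

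Of 13 measured Imd pathway genes, 8 were above 0, 0 were past 1.5-fold on either side, and the median was 0.03. The gene pirk, an inhibitor of the pathway that is itself an Imd target, stood at 0.54 from 5 spots. Tab2, a partner of the kinase Tak1, stood at 0.44, between a probe with 10 spots at -0.04 and one with 5 spots at 0.91. The gene casp, which encodes the inhibitor caspar, stood at -0.29. Of 13 measured Toll pathway genes, 8 were above 0, 0 were past 1.5-fold on either side, and the median was 0.03. The protease psh stood at 0.29, the Toll ligand spz at -0.26 and the serpin nec, which restrains psh, at 0.22.

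Factors known to bind antimicrobial peptide promoters were measured for all 9 listed genes, with 8 above 0, none past 1.5-fold and a median of 0.14. The forkhead factor fkh stood at 0.22, the gut GATA factor GATAe at 0.21 and Rel, which encodes Relish, at 0.18, values close to the SD between probes. Insulin signalling genes and FOXO targets had 6 measured genes of 9, of which 2 were above 0 and none was past 1.5-fold, with a median of -0.03. The insulin receptor gene InR stood at -0.15, Akt at -0.14 and Lip4, a lipase gene that FOXO induces, at 0.12. The gene foxo itself, named outside the rule for its role, stood at 0.09 from 5 spots.

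**Figure D4:**
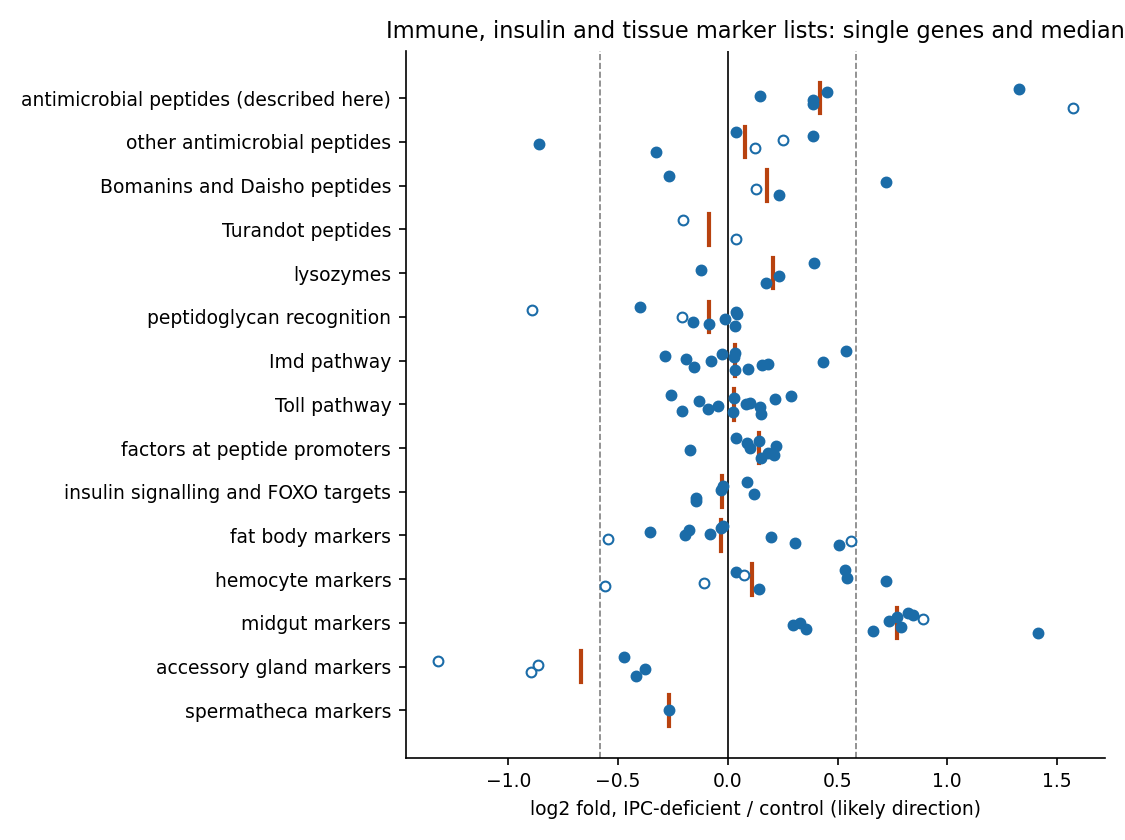
Log2 fold of IPC-deficient over control flies for each measured gene of the immune, insulin signalling and tissue marker lists, with the median of each list as a bar and 1.5-fold as dashed lines. Open points mark genes with a probe filled in fewer than 5 spots. The median is 0.42 for the 6 antimicrobial peptide genes described here and 0.08 for the other antimicrobial peptides. The Imd and Toll pathway medians are both 0.03, and the midgut marker median is 0.77.

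Markers of tissues that can make these peptides differed among themselves. All 11 measured midgut markers were above 0, 8 of them past 1.5-fold, with a median of 0.77 and a range of 0.30 to 1.41, and, among those with at least 5 filled spots, the amylase gene Amy-p at 1.41 and the trypsin gene lambdaTry at 0.84 stood furthest from 0. Peritrophin-A, with 3 spots, stood at 0.89. Of 8 hemocyte markers, 6 were above 0 and 1 was past 1.5-fold, with a median of 0.11 and a range of -0.56 to 0.72. Over the 5 hemocyte markers with every probe on all 5 arrays, each above 0, the median was 0.53, with values from 0.04 to 0.72. The 5 were PPO1, PPO2, vkg at 0.53, Col4a1 at 0.14 and srp at 0.04. Outside these 5, Hml at -0.56, NimC1 at -0.11 and eater at 0.08 had 2, 3 and 2 filled spots. The prophenoloxidase genes PPO1 and PPO2, which act in melanisation, stood highest at 0.72 and 0.54. Fat body markers had 4 of 11 above 0, none past 1.5-fold and a median of -0.03, ranging from -0.55 to 0.56. Among them, Cyp6a2 stood at 0.51 and the yolk protein gene Yp1 at -0.35.

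Male accessory gland markers stood below 0 in all 6 measured genes, 3 of them past 1.5-fold, with a median of -0.67. Those 3, Acp36DE, Acp62F and Acp95EF, rested on 3, 3 and 4 filled spots, and the 2 markers measured on all 5 arrays had a median of -0.40 with 0 past 1.5-fold. The sex peptide gene SP stood at -0.47 from 5 spots and Acp26Aa at -0.42 from 8. The spermatheca marker Send1 stood at -0.27. The table holds no levels, so summed marker levels in IPC-deficient and control flies could not be given. Only females were assayed, so the accessory gland, a male organ, was not among their tissues. The part of the midgut, hemocytes, fat body and spermatheca in the antimicrobial peptide values was not tested.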

How the data were processed

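Per the series' design text, each array was scanned 3 times, and both spot copies and all hybridisations entered the authors' normalization. Not given in the sources used here were the background correction, the normalization method and the reason for empty cells. The authors deposited scores in the form of signed fold changes: 0 of 29507 features had an absolute value under 1, and in 0 of 27376 features filled on at least 2 arrays did the arrays differ by over 1e-06. Without separate array values no limma model could be run. Arrays had from 20711 to 28090 filled features. Column medians ran from -0.00 to 0.01 and, since the values are combined, differed only by which features were filled. The 2 biological repeats limit the precision about the flies.

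Symbols of the 2007 platform annotation were updated through a RefSeq table of Release 6. Of 16224 probes, 12537 had 1 symbol, 3 several and 3684 none. Of the first, 12069 were updated by Entrez identifier, 113 by accession, and 355 kept their name. Probes were joined to genes by their median, with values equal to 5 decimals counted once. Members and lists were chosen with earlier results of these data known. Named were every member, the 3 genes furthest from 0 in each pathway list and the 2 in each marker list, given at least 5 filled spots on every probe, and genomic neighbours. Outside this rule, foxo, tobi, Ilp2, PGRP-SC1b, AttD, vkg, Col4a1, srp and the sparsely filled markers were named after their values were seen. The joining of probes was tested on simulated data. Python 3.11.15, numpy 2.4.6, pandas 2.3.3 and matplotlib 3.10.9 were used.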

Additional observations from a re-analysis of the deposited data

How the results depend on the processing

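The median over the antimicrobial peptide genes lay between 0.39 and 0.42 under every alternative that kept the sign, and was -0.42 with the sign turned. The number of these genes past 1.5-fold on the positive side was 2, and fell to 1 with the probe with most filled spots, with at least 5 filled spots, or with a value on all 5 arrays, because AttB then stood at 0.25. With the sign turned, 0 genes were positive and 2 negative at 1.5-fold, with AttB at -1.57 and Mtk at -1.33. At 2-fold, with the mean over probes, or with centred columns, the positive count remained 2. The mean and the centring could not have changed this count. Each member had 1 or 2 probes, for which mean and median are equal, and centring moved values only by the small column medians. The value of Mtk stayed between 1.32 and 1.33 under all alternatives but the turned sign. Mtk had 1 probe with all spots filled, so no choice among probes could change its value, and this is no check of it. DptB had no value where all 5 arrays were asked for. Leaving out single arrays was not run, since the columns hold 1 combined value. No paired analysis was possible because there is 1 value per probe and no test. Without intensities, low-signal probes could be judged only by filled spots.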
